A study of Mus musculus with 2 samples.

Results

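The AP-1 and EGR transcription factors were followed here as 10 genes in mouse liver: Fos, Fosb, Fosl1 and Fosl2 of the Fos family, Jun, Junb and Jund of the Jun family, and Egr1, Egr2 and Egr3 of the Egr family. They were taken as every non-control array probe whose transcript accession is a RefSeq transcript of one of these genes, which gave 11 probes and 20 spots for all 10 genes, among 20284 genes with a probe. The treated livers came from male C57BL/6 mice with fibrosis that had received recombinant TSG-6 (labelled Rh_TSG-6), a secreted hyaluronan-binding protein, through a vein. The control livers came from fibrotic males of the same strain given PBS, the vehicle. Livers were taken 2 weeks later, and the RNA of 3 mice was mixed in equal amounts for each group, so that 1 one-colour array stands for each treatment. How fibrosis was induced, the dose and the age of the mice are not given in the sources used here, and both pools share the fibrotic state.

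AP-1 is a dimer of basic leucine zipper proteins. A Jun protein pairs with another Jun or with a Fos protein, while Fos proteins need a Jun partner, and the dimer binds the letters TGANTCA in promoters and enhancers. EGR proteins bind GC-rich sites through zinc fingers and are held in check by the NAB co-repressors. Most genes of both families are immediate early genes, which serum response factor and MAP kinases switch on within minutes of a growth factor or stress signal and whose transcripts are short-lived. In the liver they are known from the early response to injury and partial hepatectomy, and Jun from the survival and proliferation of hepatocytes.

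Transcripts of 3 of the 9 members measured in both pools were lower by 2-fold or more in the TSG-6 pool: Egr2, Fosb and Fos. Fosl1 was detected in the PBS pool alone. No member was 2-fold higher, and Egr1 was the only measured member above 0 with the scaling used here. Of all 15151 genes measured in both pools, 4.29% were lower in the TSG-6 pool by 2-fold or more and 2.94% higher by as much. The log2 difference, TSG-6 minus PBS, was below 0 for 8 of the 9 members, against 42.5% of all measured genes. Fos, Fosb, Jun and Egr2 were below 0 under all 13 processing settings. Fosl2, Junb, Jund and Egr3 were above 0 under some of them. The median log2 difference was -0.53 over the members and 0.08 over all measured genes. With Fosl1 at its bound, 4 of 10 members were at least 2-fold lower, against 4.71% of all genes counted in that way, and the median was -0.59. These genes were chosen with results of the same arrays known, so that the counts describe them and carry no test.

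Each array held 59305 non-control spots, of which 75.5% in the TSG-6 pool and 74.0% in the PBS pool were well above background. Levels were read as log2 of the background-subtracted signal minus the array's 75th percentile, a signal of 2476 for TSG-6 and 3158 for PBS. The TSG-6 to PBS ratio of the signals printed below is therefore lower than the scaled ratio. With 1 array per group there is no replicate, no p-value can be given, and array and treatment cannot be told apart. The scanner software's own error was at most 26.0% of the signal for the members' spots. Between spots of the same probe, the log2 difference had an SD of 0.13, pooled over 327 probes with replicate spots. The software's error and this SD both leave out the spread between mice. None of the 20 member spots was saturated or carried an outlier flag.

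**Figure D1:**
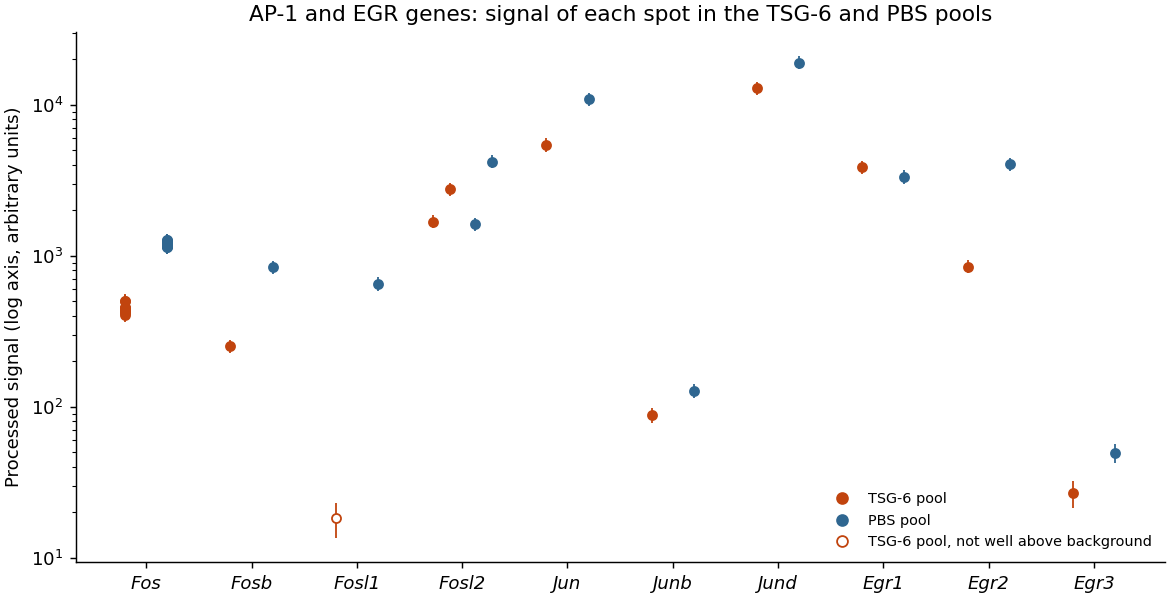
Processed signal of every member spot (arbitrary units, log axis) in the TSG-6 pool (orange) and the PBS pool (blue), with the software's error as bars; the open circle is Fosl1 at 18.3 in the TSG-6 pool, not well above background. Egr1 and 1 of the Fosl2 probes are the exceptions whose unscaled signal was higher in the TSG-6 pool. Signals of different probes are not comparable with each other.

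Fos, the founding member of the family and a partner of every Jun protein, was measured most closely, because its single probe was printed 10 times on each array. The signal averaged 450.0 ± 33.2 over the spots of the TSG-6 array and 1201 ± 48.2 over those of the PBS array (SD, 10 spots each). Spots ran from 402 to 505 in the TSG-6 pool and from 1146 to 1276 in the PBS pool, so that the highest TSG-6 spot lay well under the lowest PBS spot. After scaling, the log2 difference was -1.07 ± 0.14 (SD over the 10 spots), or 2.10-fold lower in the TSG-6 pool, and 8 of 10 spots were past 2-fold. Spots of 1 array share their RNA, so this spread is that of the array alone. Fos stood close to the threshold, and 3.76% of all measured genes had a lower difference. It was -0.97 with another background correction (normexp) and -0.78 when the percentile was taken over unflagged spots.

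**Figure D2:**
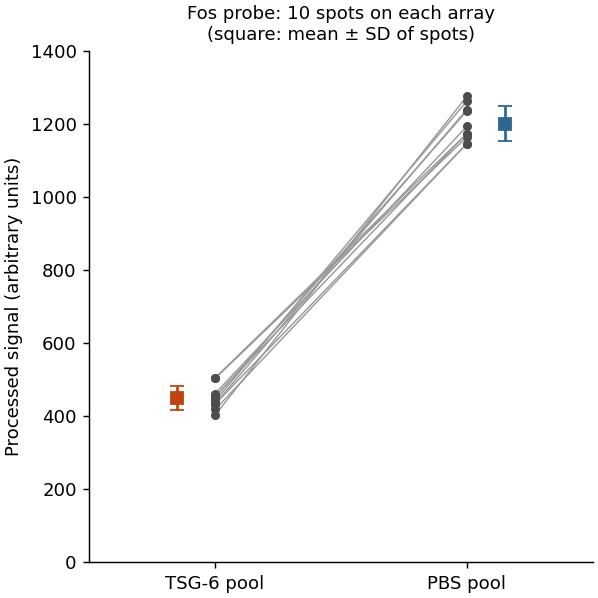
Processed signal (arbitrary units, axis from 0) of the 10 spots of the Fos probe on the TSG-6 and PBS arrays, joined by position on the array, with squares and bars for the mean ± SD of the spots. All 10 TSG-6 spots lie between 402 and 505, below every PBS spot (1146 to 1276).

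The Fos promoter is shown because it holds cyclic AMP response element cores, through which CREB and ATF proteins are known to act on this gene. In the RefSeq sequences of build GRCm38.p6, the 250 bases before the Fos start, chr12:85473640-85473889 on the plus strand, hold the letters TGACG (in capitals) with first bases at -129 and -66 from the start site.
Fos: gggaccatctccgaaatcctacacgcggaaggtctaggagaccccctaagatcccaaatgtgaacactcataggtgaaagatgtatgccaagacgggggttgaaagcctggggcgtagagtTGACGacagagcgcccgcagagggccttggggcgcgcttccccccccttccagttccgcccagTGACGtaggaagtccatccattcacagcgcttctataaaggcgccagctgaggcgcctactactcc

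Fosb, whose protein pairs with Jun in the same way and whose splice form ΔFosB is long-lived in neurons, gave a signal of 251 in the TSG-6 pool and 845 in the PBS pool. The scaled log2 difference was -1.40 ± 0.21 (software error), or 2.64-fold lower in the TSG-6 pool, and 2.05% of measured genes lay lower. It was past 2-fold under all 13 settings, between -1.81 and -1.11. Upstream of its start, at chr7:19310081-19310110 on the minus strand, lie a TGACG core at -60 and the EGR-type letters GCGNGGGCG at -50, both in capitals.
Fosb: gcgggTGACGcaagcGCGGGGGCGggtccc

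Fosl1 encodes Fra-1, a Fos protein without the strong activation domain of Fos, and is itself a known target of AP-1. It had the widest gap of the members. The signal was 653 in the PBS pool and 18.3 in the TSG-6 pool, where it was not well above background and the software error came to 26.0% of the signal. Set at the lowest level among probes detected on its array, the TSG-6 level of Fosl1 was 27.6-fold lower than the PBS level. This bound is nominal, because detection limits differ between spots. The Egr4 spot at 27.0 in the PBS pool, for example, was not well above background. Fosl2, which encodes Fra-2, did not share the gap of Fosl1. Its brighter probe, A_55_P1995195, gave 2752 in the TSG-6 pool and 4207 in the PBS pool, a log2 difference of -0.26 ± 0.20. Its other probe, A_51_P507242, gave 1686 in the TSG-6 pool and 1624 in the PBS pool, a difference of 0.41 ± 0.20. The probes stood on opposite sides of 0, and no direction is given for Fosl2. The Fos family thus held 2 genes at least 2-fold lower, 1 detected in the PBS pool alone and 1 within 2-fold.

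In the Jun family no gene reached 2-fold. Jun, the strongest activator of the family, gave a signal of 5439 in the TSG-6 pool and 10878 in the PBS pool. The scaled log2 difference was -0.65 ± 0.20, or 1.57-fold lower in the TSG-6 pool, and 8.90% of measured genes lay lower. It was below 0 under all 13 settings and past 2-fold under spike-in scaling alone, at -1.06. Jun is known to drive its own gene through a variant AP-1 site in the promoter, for which its sequence is shown. The letters TGACATCA, in capitals, begin at -45 in chr4:95052223-95052472, minus strand. They stood in 3.62% of all 32851 promoter windows of the table, each from 250 bases before to 50 after a start.
Jun: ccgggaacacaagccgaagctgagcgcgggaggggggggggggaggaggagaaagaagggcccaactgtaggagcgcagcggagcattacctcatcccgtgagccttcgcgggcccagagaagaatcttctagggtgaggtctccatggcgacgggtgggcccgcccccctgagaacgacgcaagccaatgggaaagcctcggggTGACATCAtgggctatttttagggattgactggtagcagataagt

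Junb, which restrains Jun in many cells, gave 88.3 in the TSG-6 pool and 127.6 in the PBS pool, a scaled log2 difference of -0.18 ± 0.22. Jund, the Jun gene with the steadiest expression in resting cells, gave 12938 in the TSG-6 pool and 19015 in the PBS pool, a difference of -0.20 ± 0.20. Both differences were about the size of the software's error, with 28.0% of measured genes below Junb and 26.4% below Jund. Each changed sign under some scaling: Junb reached 0.11 and Jund 0.08 with the percentile over unflagged spots, and Junb 0.10 with normexp.

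The Egr genes lay on both sides of 0. Egr2, known for its role in myelination and in macrophage and T cell activation, gave 849 in the TSG-6 pool and 4049 in the PBS pool. The scaled log2 difference was -1.90 ± 0.20, or 3.74-fold lower in the TSG-6 pool, the lowest value among members measured in both pools. Only 0.977% of measured genes lay lower, and it stayed past 2-fold in all 13 settings, between -2.31 and -1.61. Egr1, the member most often studied in liver injury, ran the other way. It gave 3852 in the TSG-6 pool and 3337 in the PBS pool, a scaled log2 difference of 0.56 ± 0.20 or 1.47-fold higher in the TSG-6 pool, which is under 2-fold. Egr1 was above 0 under all 13 settings, between 0.15 and 0.85, and 88.5% of measured genes lay below it. Egr3, known from lymphocytes and muscle spindles, was near the detection limit. It gave 26.9 in the TSG-6 pool and 49.5 in the PBS pool, with a log2 difference of -0.53 ± 0.36 that became 0.16 with normexp, so no direction is given.

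The Egr2 upstream region is shown for its serum response element, the site of serum response factor known as the CArG box. At chr10:67537787-67537816 on the plus strand, 30 bases hold a CArG box, in capitals. A CArG box stood in 1.63% of all promoter windows.
Egr2: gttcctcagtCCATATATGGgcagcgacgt

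**Figure D3:**
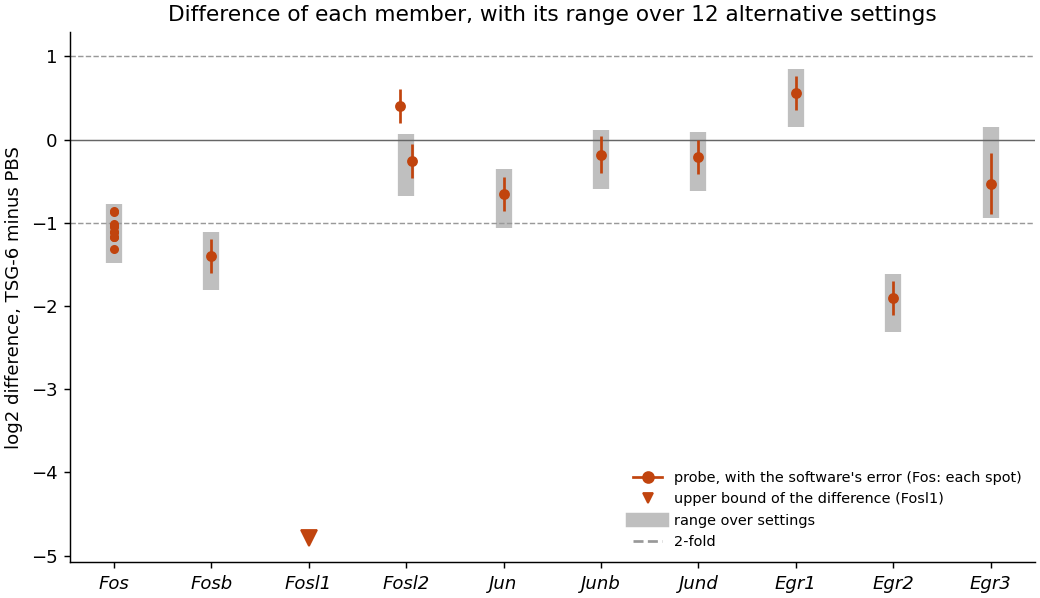
log2 difference (TSG-6 minus PBS) of each member, with points for probes (for Fos, single spots), bars for the software's error, grey bands for the range over the settings and a triangle for the nominal upper bound of Fosl1. Fosb and Egr2 lie past 2-fold over their whole band (-1.81 to -1.11 and -2.31 to -1.61), whereas Junb, Jund, Fosl2 and Egr3 have bands that cross 0.

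The scaling sets where 0 lies. The median of all measured genes moved by -0.11 when arrays were scaled to their median, by -0.10 with quantile normalization, by -0.13 with loess, by -0.41 with spike-in controls and by 0.29 with the percentile over unflagged spots. Read relative to the median of all genes in the same setting, Fos was at -1.14 and ran from -1.15 to -1.07 over the 13 settings. Settings that shift all genes by 1 constant cancel on this footing by construction. For Fos, mainly normexp, quantile normalization and loess could move the value. On the reported scale Fos was past 2-fold in 11 of the 13. Jun, at -0.73 on this footing, ran from -0.73 to -0.68, and Egr1, at 0.48, from 0.38 to 0.57. Egr2 ran from -1.98 to -1.88 and Fosb from -1.48 to -1.30. The relative ranges of Egr2, Fosb, Fos, Jun and Egr1, in this order, did not overlap, which for constant shifts was fixed in advance.

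**Figure D4:**
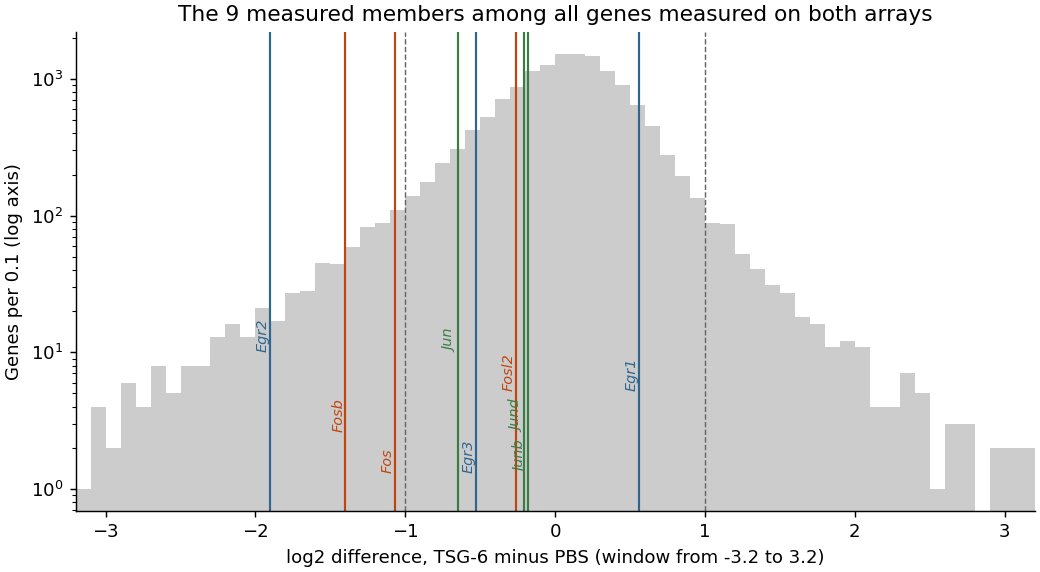
Number of measured genes (log axis) per 0.1 of log2 difference, TSG-6 minus PBS, between -3.2 and 3.2, with lines at the 9 members measured in both pools (orange, Fos family; green, Jun family; blue, Egr family) and dashed lines at 2-fold. Egr2, Fosb and Fos lie in the lower tail and Egr1 on the upper shoulder; Fosl1, with a bound alone, is not drawn.

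Promoter letters were set against all windows of the same length. RefSeq windows were found for 7 of the 10 members. None of these 7 held TGANTCA, which 7.81% of all windows hold. TGACG, which also forms part of longer sites, stood in 4 of 7 (Fos, Fosb, Junb and Egr2) and in 20.8% of all windows. GCGNGGGCG stood in 2 of 7 (Fosb and Fosl2), against 5.55% of all windows. Both strands were searched and a member with several windows was counted once. On the count by gene, TGACG was in 23.0% and GCGNGGGCG in 6.27% of all genes. The lists described below held these letters too. TGACG stood in 7 of 10 leucine zipper partners, 10 of 17 upstream genes and 11 of 18 other immediate early genes. It was in 6 of 16 AP-1 targets and 3 of 10 EGR targets. GCGNGGGCG stood in 4 of 10, 6 of 17, 9 of 18, 2 of 16 and 2 of 10 of the same lists. The letters were therefore not particular to the members. Matches are letters in a window and not shown sites.

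The next genes were those whose promoters AP-1 is known to bind. Of 21 measured AP-1 targets from a list of 23, 7 were lower by 2-fold or more in the TSG-6 pool and none was 2-fold higher, and 17 lay below 0. Over all measured genes, 4.29% were as low, 2.94% as high and 42.5% below 0. The median log2 difference of these targets was -0.81. Mmp13, the collagenase that is a standard AP-1 reporter gene, gave a signal of 92.8 in the TSG-6 pool and 4118 in the PBS pool, a scaled difference of -5.12. Sprr1a, an epithelial envelope protein induced with regeneration, gave 987 in the TSG-6 pool and 37853 in the PBS pool, a difference of -4.91. Mmp10, a stromelysin, gave 45.7 in the TSG-6 pool and 472 in the PBS pool, a difference of -3.02. These 3 genes were past 2-fold under every one of the 13 settings, with Mmp13 at -3.99 and Mmp10 at -2.13 under normexp. The growth factor gene Areg, chosen here with its values known, was detected in the PBS pool alone. It gave 19.9 in the TSG-6 pool, not well above background, and 620 in the PBS pool. After scaling the gap was 24.5-fold, which rests on that dim signal and is not a lower limit. Other targets did not share such differences: Il6 was at 0.04, Vegfa at 0.18 and the metallothionein gene Mt1 at 0.57. Il6, Vegfa and Mt1 were likewise chosen after their values were seen.

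The windows of Mmp13, Sprr1a and Mmp10 are shown because each holds the AP-1 letters TGANTCA close to the start, in capitals. In Sprr1a the capitals also mark TGACATCA. They are chr9:7272264-7272513 (plus strand), chr3:92485882-92486131 (minus strand) and chr9:7502092-7502341 (plus strand), each the 250 bases before the start.
Mmp13: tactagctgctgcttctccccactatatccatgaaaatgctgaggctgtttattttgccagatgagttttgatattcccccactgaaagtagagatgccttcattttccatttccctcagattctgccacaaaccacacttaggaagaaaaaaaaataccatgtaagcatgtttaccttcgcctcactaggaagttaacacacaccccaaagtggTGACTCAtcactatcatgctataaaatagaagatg
Sprr1a: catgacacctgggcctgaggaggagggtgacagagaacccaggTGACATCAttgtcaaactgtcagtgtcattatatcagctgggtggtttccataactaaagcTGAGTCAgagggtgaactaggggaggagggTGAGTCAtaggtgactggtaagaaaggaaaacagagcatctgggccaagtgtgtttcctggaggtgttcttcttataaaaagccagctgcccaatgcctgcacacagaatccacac
Mmp10: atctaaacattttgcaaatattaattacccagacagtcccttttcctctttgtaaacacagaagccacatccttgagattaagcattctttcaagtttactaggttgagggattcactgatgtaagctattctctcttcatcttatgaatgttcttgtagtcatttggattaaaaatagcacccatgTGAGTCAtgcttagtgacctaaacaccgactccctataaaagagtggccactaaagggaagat
Of the AP-1 targets with a window, 7 of 16 held TGANTCA, against 8.97% of all 27025 genes with a window. Of the 7 with the letters, all measured, 5 were lower by 2-fold or more in the TSG-6 pool, against 4.29% of all measured genes. Their values ran from -5.12 to 0.04. Of the 8 measured targets with a window and without the letters, 0 were at least 2-fold lower, with a median of -0.48 and values from -0.97 to 0.57. This 0 depends on the setting, since Tnf, in this group at -0.96, was past 2-fold under 5 of 13 settings, and Timp1, named with its value known, was at -0.97. The remaining target with a window, Areg, has no TGANTCA there and is outside this count, being detected in the PBS pool alone. Its TSG-6 level was 24.5-fold lower by a signal not well above background. Measured AP-1 targets without a window are outside the split too. They include the rest of the 7 targets at least 2-fold lower, whose promoter letters are not known here. The list and the split were made with results of these arrays known, and no test was made of the contrast.

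Known EGR targets were set beside these. Over all measured genes, 4.29% were at least 2-fold lower, 2.94% at least 2-fold higher and 42.5% below 0. Of 14 EGR targets measured from a list of 15, 2 were lower by 2-fold or more in the TSG-6 pool. None was 2-fold higher, and 11 lay below 0, with a median of -0.45. Cxcl2, a neutrophil chemokine and 1 of these 2, gave 48.4 in the TSG-6 pool and 238 in the PBS pool (log2 difference -1.94, and -1.08 under normexp). The cytokine gene Tnf was at -0.96 and the monocyte chemokine Ccl2 at -0.81, both under 2-fold with the scaling used here. Tnf was past 2-fold under 5 of 13 settings, between -1.37 and -0.60 over all of them, and Ccl2 under spike-in scaling alone, at -1.23. The EGR and AP-1 target lists share 4 genes, Tnf and Ccl2 among them, so their counts overlap. Nab2, the co-repressor that EGR proteins induce, gave 960 in the TSG-6 pool and 1564 in the PBS pool by its brighter probe, a difference of -0.35, while its other probe was at 0.15. Nab1 had a spot with an outlier flag and no value is given. Egr4 was dim, with 22.8 in the TSG-6 pool, where it was well above background, and 27.0 in the PBS pool, where it was not.

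Next came leucine zipper genes whose proteins pair with Fos or Jun or compete for their sites. Among 11 measured, 2 were lower by 2-fold or more in the TSG-6 pool and none was 2-fold higher. Over all measured genes, 4.29% were as low and 2.94% as high. The median of the 11 was -0.19 and became 0.10 with the percentile over unflagged spots. Atf3, a stress-induced partner of Jun, gave 1134 in the TSG-6 pool and 15816 in the PBS pool, a log2 difference of -3.45. Maff, a small Maf protein without an activation domain, gave 405 in the TSG-6 pool and 1734 in the PBS pool, a difference of -1.75. Batf3, at -0.45, and Batf2, at -0.35, came next and were under 2-fold.

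Transcripts of the upstream pathway were measured on the same arrays. Of 20 measured genes for serum response factor, its ternary complex partners and the MAP kinases, none was 2-fold lower or higher in the TSG-6 pool. Over all measured genes, 4.29% were at least 2-fold lower, 2.94% at least 2-fold higher and 42.5% below 0. A count of none among 20 upstream genes lies near those shares. Of the 20, 10 lay below 0 and 10 above. Their median was 0.01, with a range from -0.40 under spike-in scaling to 0.30 with the percentile over unflagged spots. The JNK kinase gene Map2k7 was at 0.60 and Rps6ka5 (the kinase MSK1) at 0.59. The ternary complex factor Elk4 was at 0.58, with its 3 probes between 0.17 and 0.74. By its brighter probe the p38 kinase gene Mapk14 was at -0.36, while its other probe was at 0.58. Srf itself gave 1828 in the TSG-6 pool and 2725 in the PBS pool by its brighter probe, a log2 difference of -0.23, and its other probe was at -0.47. Under other settings the value of Srf reached 0.06 and that of Mapk14 reached 0.11, so no direction is given for either. RNA levels do not report the activity of these kinases.

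Other immediate early genes, induced by the same signals, formed a list of their own. Of 19 measured from a list of 23, 8 were lower by 2-fold or more in the TSG-6 pool, none was 2-fold higher, and 16 lay below 0, with a median of -0.87. Over all measured genes, 4.29% were as low, 2.94% as high and 42.5% below 0. Beside Atf3 and Maff, which the list shares with the leucine zipper genes, the largest differences were in Arc and Ier3. Arc, a synaptic activity gene, gave 58.2 in the TSG-6 pool and 399 in the PBS pool, a log2 difference of -2.43, or -1.53 under normexp. Ier3, a survival gene induced by stress, gave 803 in the TSG-6 pool and 4836 in the PBS pool, a difference of -2.24. The list held 4 genes at least 2-fold lower when the percentile was taken over unflagged spots, against 2.48% of all measured genes there.

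**Figure D5:**
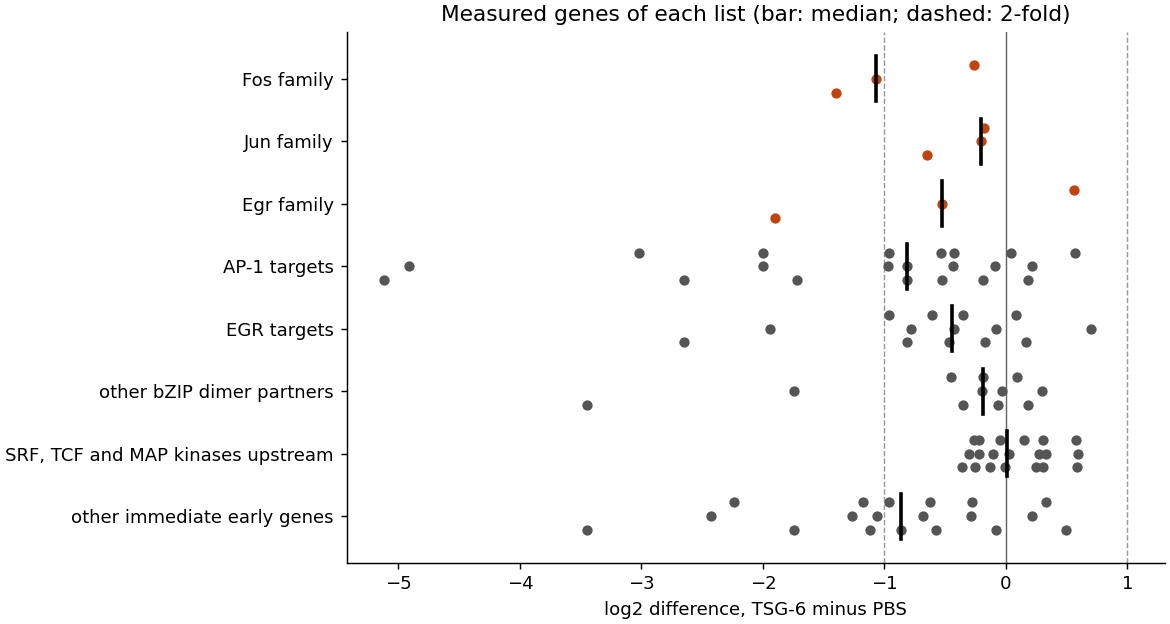
log2 difference (TSG-6 minus PBS) of the measured genes of each family and list, with points for genes, black bars for the median and dashed lines at 2-fold. The 21 AP-1 targets reach -5.12 and have a median of -0.81, whereas the 20 upstream genes stay between -0.36 and 0.60.

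Cell markers moved between the same pools. Both pools carried hepatocyte markers, with 7 of 9 measured, none past 2-fold and a summed level (in units of the 75th percentile) of 184.5 in the TSG-6 pool and 144.4 in the PBS pool. Of 9 activated stellate cell markers, all measured, 5 were lower by 2-fold or more in the TSG-6 pool and the summed level was 33.8 in the TSG-6 pool and 52.0 in the PBS pool. Acta2, the smooth muscle actin of myofibroblasts, was at -2.47. Of 11 neutrophil markers, 7 were at least 2-fold higher in the TSG-6 pool, with a summed level of 68.6 in the TSG-6 pool and 34.4 in the PBS pool. These 7 were the granule protein genes Mpo, Elane, Ctsg, Prtn3, Ngp, Ltf and Camp. The rest were under 2-fold: S100a8 at 0.85, Csf3r at 0.44, S100a9 at 0.18 and Cxcr2 at -0.19. The list did not move as a whole. Of 11 measured macrophage markers, 2 were lower and 1 higher by 2-fold or more, with a summed level of 88.8 in the TSG-6 pool and 84.1 in the PBS pool. None of 9 markers of T, NK and B cells or of 5 endothelial markers was past 2-fold. Across all measured genes, the share past 2-fold was 4.29% on the lower side and 2.94% on the higher side. In marker lists this short, a count of none lies near those shares and does not show that the cells stayed unchanged. Of 3 measured erythroid markers, 2 were at least 2-fold higher, with a summed level of 18.4 in the TSG-6 pool and 17.6 in the PBS pool, and of 4 bile duct markers 2 were measured, neither past 2-fold. In bulk liver RNA, fewer cells of a type and less RNA per cell cannot be told apart. The part of these cells in the values of Fos, Fosb, Fosl1, Egr2 and the AP-1 targets was not tested.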

How the data were processed

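Each array measured Cy3 cRNA from 0.2 ug of pooled liver RNA, per the labels. The scanner files as deposited hold each spot's processed signal, a background-subtracted intensity on a linear scale, from Agilent Feature Extraction 11.5.1.1 per the file headers (10.7 per the submitters' processing notes). The value table holds the authors' log2 values. For 100% of 55249 single-spot probes these equalled log2 processed signal less a constant per array (tolerance 0.001); column medians were -3.77 for TSG-6 and -3.90 for PBS, and no centring of genes was found.

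Levels were log2 processed signal relative to the 75th percentile of all non-control spots of the array. Outlier-flagged spots (6.44% in TSG-6 and 3.40% in PBS) were left out and replicate spots averaged. Probes counted as detected with 50% or more of their spots well above background, and genes were represented by the probe detected on the most arrays, then the brightest. For genes detected in 1 pool a nominal bound was given: the bright level over the dim probe's own or over the lowest detected level, whichever was higher. Spots have detection limits of their own, so the true fold can be smaller. A RefSeq table of GRCm38.p6, used for names, matched 26762 of 55681 probes; the array design is on mm9, per the file headers. Both arrays shared 1 slide and 1 scan.

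With 1 array per group, genes were called by size at 2-fold, with no test. Named genes were all 10 members with each probe, Egr4, Nab1, Nab2 and Srf, and up to 4 measured genes of each other list with the largest differences; none was named for a likeness of pattern, since 2 arrays give a single difference. Areg, Il6, Vegfa, Mt1, Timp1, the marker Acta2 and the neutrophil markers are named outside it, with their values known. A gene that this rule takes is not reported here by name and is kept in the counts. Members and lists were chosen with earlier results of these data known. The 12 alternatives changed the background correction (normexp on the median spot signal, offset 50, limma 3.58.1), scaling, filters, probe rule or source of values. Python 3.11.15 and R 4.3.3 were used, and the steps were tested on simulated data.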

Additional observations from a re-analysis of the deposited data

How the results depend on the processing

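Over 12 alternative settings, members lower by 2-fold or more in the TSG-6 pool numbered 2 to 4 and members 2-fold higher numbered 0 throughout. Fos left the lower group with normexp (-0.97) and with the percentile over unflagged spots (-0.78), Jun joined it under spike-in scaling, and Fosl1 joined it, at -4.80, without the filter on dim probes. The members' median, -0.53, was -0.29 with normexp, -0.24 with the percentile over unflagged spots, -0.71 with quantile normalization, -0.74 with loess and -0.94 with spike-in scaling. With spike-in scaling, 11 AP-1 targets and 6 EGR targets were at least 2-fold lower, against 10.3% of all measured genes. With the percentile over unflagged spots, 4 other immediate early genes were at least 2-fold lower, against 2.48% of all measured genes. With flagged spots kept, 1 upstream gene was 2-fold higher. Over all genes, 1555 were at least 2-fold lower and 173 higher with spike-in scaling, 376 lower and 1018 higher with the percentile over unflagged spots, and 402 lower and 290 higher with normexp, against 650 lower and 446 higher in the values reported. A change of percentile, median or spike-in moves all genes by 1 constant; for the other settings the cause was not tested. Dim probes (Fosl1, Egr3 and Egr4) are limited by signal over background. No paired analysis was possible because each group has 1 array.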
